A study of Mus musculus with 6 samples.

Results

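Pcdhb2 to Pcdhb8 are the 7 members of the beta protocadherin array that follow Pcdhb1, taken here by symbol from the 54532 genes of the count tables. They were measured by RNA sequencing of whole mouse brains at postnatal day 14, with 1 brain per library and 3 brains per genotype, on the C57BL/6J background. All 6 mice carried Nestin-Cre. Per the labels, the 3 controls had 1 floxed and 1 wild-type allele (Mphosph8 fl/+ Nestin-Cre+) and the 3 mutants had only floxed alleles (Mphosph8 fl/fl Nestin-Cre+, labelled Mphosph8∆n). The study's text describes the controls as Nestin-Cre+ littermates without naming a floxed allele, and the labels were followed here. Nestin-Cre acts in neural progenitors, and the deletion is inherited by the neurons and glia they give rise to. Whether vessel cells, microglia and blood in the same brain kept the gene unrecombined was not measured here. The floxed allele came from a purchased embryonic stem cell clone.

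Clustered protocadherins are cadherin-type adhesion proteins of neurons. Each neuron switches on only some of the members, and the resulting mix of proteins on its surface gives the cell an identity that it recognises on its own branches and on those of other cells through like-to-like binding. In the alpha and gamma arrays a variable exon is spliced to shared constant exons, whereas a beta gene is a single coding exon with its own promoter, so that a beta transcript carries no shared tail. The choice of promoter involves DNA methylation, the insulator protein CTCF and cohesin. Mphosph8 encodes MPP8, the chromodomain protein that binds histone H3 methylated on lysine 9 and belongs to the repressive HUSH complex.

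The 7 genes lie head to tail on the plus strand of chromosome 18 within 63.8 kb (GRCm38). Pcdhb2 spans positions 37294812 to 37297624, Pcdhb3 37300799 to 37304585, Pcdhb4 37307455 to 37311172 and Pcdhb5 37320381 to 37323915. They are followed by Pcdhb6 at 37333921 to 37337674, Pcdhb7 at 37341702 to 37345202 and Pcdhb8 at 37355121 to 37358604. All are annotated as protein coding, and in each the coding transcript has 1 exon. The intervals between neighbours ran from 2869 bases, between Pcdhb3 and Pcdhb4, to 10005 bases, between Pcdhb5 and Pcdhb6. Larger gaps set the block apart on both sides, with 27286 bases from the end of Pcdhb1 to Pcdhb2 and 42250 bases from Pcdhb8 to Pcdhb9. No exon of another gene overlapped theirs on either strand. Inside the block, the pseudogene Gm18529 collected between 0 and 4 counts per library.

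The members are close relatives in sequence. Their coding sequences are 2316 to 2487 bases long without the stop codon, and pairwise identity over the 21 pairs ran from 73.2%, for Pcdhb2 and Pcdhb7, to 89.7%, for Pcdhb6 and Pcdhb8, with a median of 75.2%. Against Pcdhb9 to Pcdhb22 the median identity was 74.3% and the highest 89.8%, for Pcdhb7 and Pcdhb9. Identity to Pcdhb1, an outlying member of the array, was 57.9% to 59.7%. The reads were 50 bases long, and of all 50-base words in the transcripts of each gene, the share also present in another gene ran from 2.06% in Pcdhb2 to 8.58% in Pcdhb7, with 7.54% in Pcdhb6 and 5.80% in Pcdhb8. Pcdhb6 and Pcdhb8 had 160 such words in common, and Pcdhb7 and Pcdhb9 had 189. The sources used here do not say how reads matching several places were counted, so a small part of the counts of these pairs is uncertain.

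The libraries held 12956880 to 15223424 counts. Per the labels the control brains carried 1 floxed Mphosph8 allele with Nestin-Cre, so the mutants were not compared with an intact gene. Mphosph8 itself, counted over the whole gene and thus including transcript outside the deleted exon, was at 55.8, 48.6 and 70.7 CPM (counts scaled to a common effective library size) in the control brains and at 33.1, 27.2 and 26.5 CPM in the mutant brains, lower in each of them (log2 fold change -1.02 ± 0.12 (SE), adjusted p = 0.000157, edgeR's quasi-likelihood test). Its adjusted p stayed under 0.05 with any 1 library left out, but the change fell short of 2-fold, and the call was lost, without control replicate 3 (-0.85), mutant replicate 2 (-0.98) or mutant replicate 3 (-0.96). Control replicate 3 stood apart from the other 5 libraries with 303 to 1398 counts of each of 4 Y-linked genes and 27 counts of Xist, where the others had at most 1 Y-linked count per gene and 11130 to 17697 of Xist. The labels give no sex. By these counts control replicate 3 came from a male and the other 5 libraries from females, so sex was not balanced between the groups. The member changes, the summed level and the shares are therefore also given without control replicate 3. Of 16731 genes tested, edgeR called 59 higher in the mutants (0.353%) and 1 lower (0.00598%) at an adjusted p under 0.05 and a change over 2-fold.

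All 7 members were tested, and each was above 1 CPM in every library. Pcdhb2, Pcdhb3, Pcdhb4, Pcdhb5, Pcdhb6 and Pcdhb8 passed both thresholds and rose in the mutant brains, so that 6 of 7 were called against 0.353% of all genes tested. Pcdhb7 did not pass. Without the fold threshold the count of members was also 6, beside 0.532% of tested genes called higher and 0.0956% called lower. For all 7 members the 3 mutant CPM values lay above the 3 control values, a pattern found in 6.23% of all genes tested. DESeq2 called 0.335% of genes higher and limma-voom 0.341%, and the members that each called were the same 6. The median log2 fold change of the 7 genes was 1.06, against -0.01 over all genes tested. In whole tissue, more cells that express a gene and more RNA per expressing cell cannot be told apart.

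**Figure D1:**
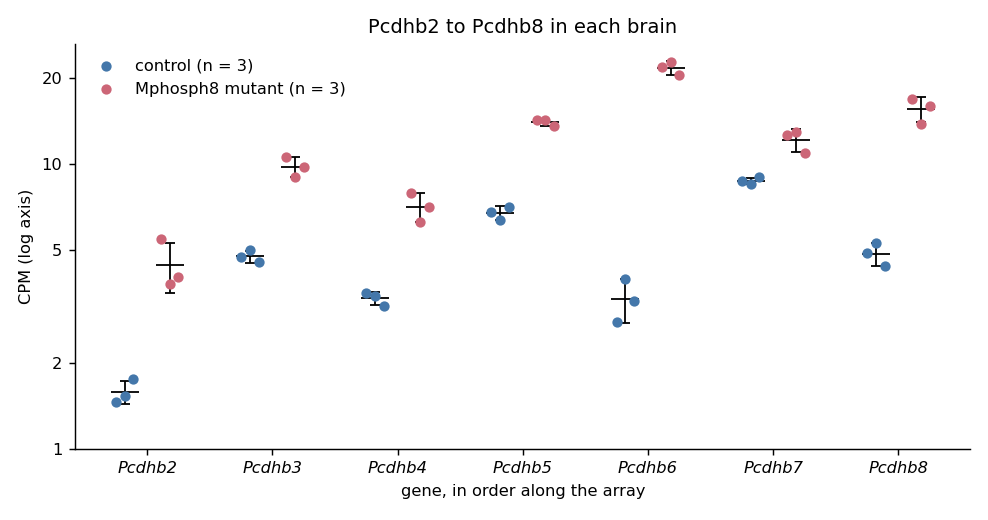
CPM of each gene in each brain on a log axis, with 3 control libraries (blue) and 3 Mphosph8 mutant libraries (red) per gene; the horizontal mark is the group mean and the bars are ± SD. The groups do not overlap for any of the 7 genes, and the gap is widest for Pcdhb6 and narrowest for Pcdhb7.

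Pcdhb6 showed the largest change. Its level was 2.79, 3.95 and 3.31 CPM in the control brains and 22, 22.9 and 20.6 CPM in the mutant brains. The lowest mutant value thus lay far above the highest control value, and the spread within each group was small beside the gap. The log2 fold change was 2.71 ± 0.14 (SE), a 6.52-fold rise with a 95% interval from 5.29 to 8.05 (adjusted p = 2.78e-09, edgeR). That interval overlapped the interval of no other member. Pcdhb6 ranked 9 among all tested genes by log2 fold change.

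Pcdhb8, the last gene of the block and the closest relative of Pcdhb6, followed. It was at 4.85, 5.27 and 4.39 CPM in the controls and at 17, 13.9 and 16 CPM in the mutants, with no overlap. Its log2 fold change was 1.69 ± 0.14 (SE), or 3.23-fold with a 95% interval from 2.62 to 3.97 (adjusted p = 2.00e-06, edgeR). The words shared with Pcdhb6 were a small share of either transcript, and their part in the values of the pair was not tested.

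Pcdhb2, at the upstream end of the block, was the least abundant of the 7. It was at 1.46, 1.54 and 1.75 CPM in the controls and at 5.44, 3.81 and 4.0 CPM in the mutants. Mutant replicate 1 was clearly the highest of its group, but the lowest mutant value still lay above all control values. The log2 fold change was 1.47 ± 0.23 (SE), or 2.77-fold with a 95% interval from 1.96 to 3.90 (adjusted p = 0.00291, edgeR). These values rest on 21 to 26 counts per control library and 51 to 68 per mutant library, which makes the interval the widest of the 7 on the log2 scale. Without mutant replicate 1 the log2 fold change was 1.29.

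Pcdhb3, Pcdhb4 and Pcdhb5, which lie next to each other, rose by nearly equal factors. Pcdhb3 was at 4.72, 4.98 and 4.52 CPM in the controls and at 10.6, 9.03 and 9.74 CPM in the mutants. Pcdhb4 was at 3.52, 3.44 and 3.17 CPM against 7.92, 6.27 and 7.05 CPM. Pcdhb5 was at 6.78, 6.37 and 7.09 CPM against 14.3, 14.3 and 13.6 CPM. In each of these genes the control brains differed little from each other and all mutant brains were higher. The log2 fold changes were 1.05 ± 0.15, 1.06 ± 0.17 and 1.06 ± 0.13 (SE), with adjusted p-values of 0.000852, 0.00393 and 0.000133 (edgeR). All 3 lie close to the 2-fold limit. Without mutant replicate 1, Pcdhb3 (log2 fold change 0.99, adjusted p = 0.00166, edgeR) and Pcdhb4 (0.98, adjusted p = 0.00841, edgeR) fell just below that limit while keeping an adjusted p under 0.05, and 4 of the 7 members were then called.

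Pcdhb7 was the most abundant member in the controls and changed least. It was at 8.71, 8.50 and 8.98 CPM in the control brains and at 12.6, 13 and 10.9 CPM in the mutant brains. The groups did not overlap, but mutant replicate 3 was not far above the controls. The log2 fold change was 0.48 ± 0.13 (SE), or 1.39-fold with a 95% interval from 1.15 to 1.68. Its unadjusted p of 0.00169 became an adjusted p of 0.154 over all genes tested (edgeR), and it was called under none of the alternatives run. Pcdhb7 stands between Pcdhb6 and Pcdhb8, the pair that rose most, so that neither size of change nor level followed the order of the genes along the chromosome.

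Counting error sets a limit to what can be read from single members. In the controls the coefficient of variation over the 3 libraries ran from 2.76% for Pcdhb7 to 17.4% for Pcdhb6, and for every member but Pcdhb6 it was below that expected from Poisson counting alone. In the mutants it ran from 2.84% for Pcdhb5 to 20.2% for Pcdhb2, where counting alone would give 7.34% and 13.1%. Mutant replicate 1 was the highest of its group for 5 of the 7 members, namely all except Pcdhb6 and Pcdhb7.

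Levels can be compared between genes only per length, as RPKM, which is the CPM value divided by the exonic length in kilobases. In the controls Pcdhb7 was highest with 2.49 ± 0.0688 RPKM (SD, n = 3), followed by Pcdhb5 with 1.91 ± 0.101, Pcdhb8 with 1.39 ± 0.127 and Pcdhb3 with 1.25 ± 0.0607. Pcdhb4 (0.909 ± 0.0495), Pcdhb6 (0.893 ± 0.155) and Pcdhb2 (0.564 ± 0.0539) were lowest. The ranges of Pcdhb8 and Pcdhb3 overlapped, although Pcdhb8 was the higher in each of the 3 libraries. Those of Pcdhb4 and Pcdhb6 overlapped as well, with Pcdhb4 higher in 1 of 3, whereas the ranges of the other neighbours in the order did not overlap. The highest and lowest mean differed by a factor of 4.42.

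In the mutants the order of the levels was another one. Pcdhb6 moved from near the bottom to the top with 5.81 ± 0.314 RPKM (SD, n = 3), followed by Pcdhb8 with 4.48 ± 0.450 and Pcdhb5 with 3.98 ± 0.113. Pcdhb7, the highest in the controls, came next with 3.48 ± 0.318 RPKM. Pcdhb3 (2.59 ± 0.212), Pcdhb4 (1.90 ± 0.221) and Pcdhb2 (1.57 ± 0.317) were lowest, and the factor between highest and lowest mean was 3.71. Ranges overlapped between Pcdhb8 and Pcdhb5, with Pcdhb8 higher in 2 of 3 libraries, and between Pcdhb4 and Pcdhb2, with Pcdhb4 higher in all 3.

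**Figure D2:**
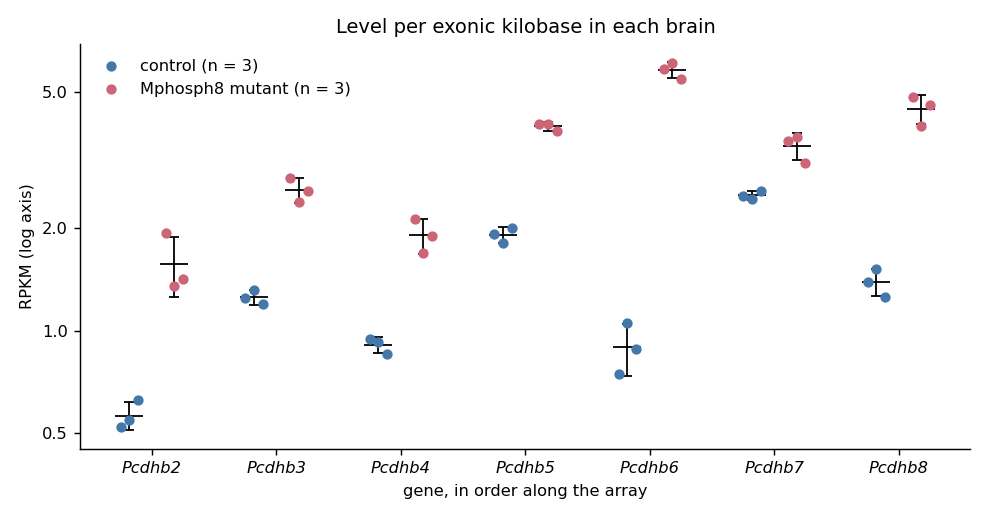
RPKM of each gene in each brain on a log axis, so that genes can be compared with each other; blue points are 3 control and red points 3 Mphosph8 mutant libraries, with the group mean and ± SD in black. Pcdhb7 is highest in the controls and Pcdhb6 in the mutants, while Pcdhb2 has the lowest mean in both.

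Summed over the 7 genes, the level was 32.8, 34.1 and 33.2 CPM in the control brains and 89.9, 83.2 and 81.9 CPM in the mutant brains. The sums differed little within either group beside the gap between them. The mean rose from 33.4 ± 0.621 to 85.0 ± 4.30 CPM (SD, n = 3 per group), a ratio of 2.55, in an exact two-sided permutation test with p = 0.1, the smallest value that 3 against 3 libraries can give. Of the rise of 51.6 CPM, Pcdhb6 contributed 35.8%, Pcdhb8 20.9% and Pcdhb5 14.2%, and the other 4 genes contributed between 5.48% and 9.81% each. Without Pcdhb6 the ratio was 2.10.

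The make-up of the sum shifted as well. The share of Pcdhb6 was 8.50%, 11.6% and 9.96% of the 7-gene count in the control brains and 24.5%, 27.6% and 25.1% in the mutant brains. The share of Pcdhb7 moved the other way, from 26.5%, 24.9% and 27.0% to 14.1%, 15.6% and 13.3%. Neither gene's shares overlapped between the groups, and such shares do not depend on how the libraries are scaled. The mean share of Pcdhb8 was 14.5% in the controls and 18.4% in the mutants, while Pcdhb3 (14.2% and 11.5%), Pcdhb4 (10.1% and 8.32%) and Pcdhb5 (20.2% and 16.6%) held smaller shares in the mutants, all without overlap. For these 6 genes the exact two-sided permutation test gave p = 0.1 each, the smallest possible, and 0.117 after adjustment over the 7 shares, so no share could pass the threshold with this number of brains. The share of Pcdhb2, 4.75% and 5.17%, overlapped between the groups (exact permutation p = 0.5). The shares of a brain add up to the whole, so a larger share of Pcdhb6 by itself makes the others smaller. The share tests are thus not independent of each other. Pcdhb3, Pcdhb4, Pcdhb5 and Pcdhb7 held smaller shares although their levels rose, with log2 fold changes of 1.05, 1.06, 1.06 and 0.48. Their shares in the sum without Pcdhb6 were not compared.

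**Figure D3:**
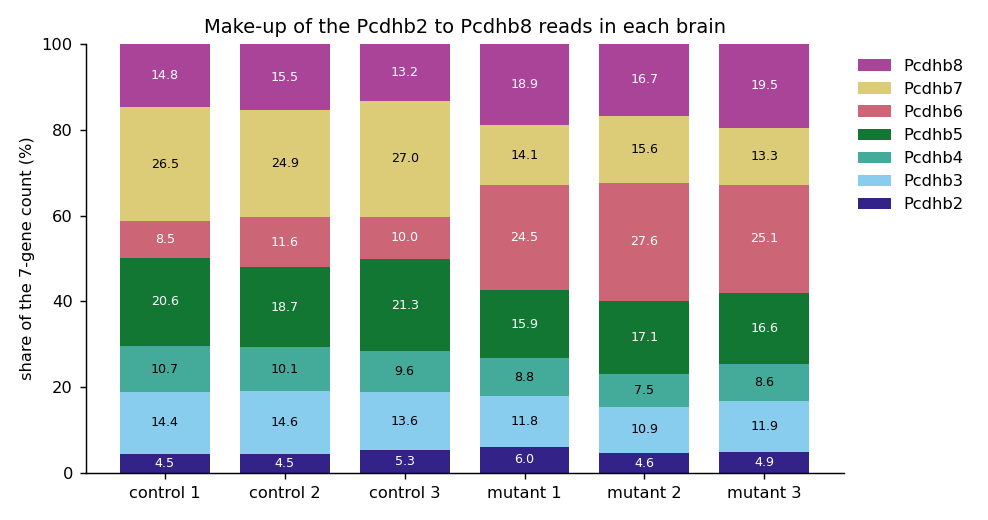
Share of each gene in the summed count of the 7 genes, in percent, for each of the 6 libraries; each bar adds up to the whole sum of 1 brain. The Pcdhb6 segment is wider in every mutant brain than in any control brain, and the Pcdhb7 segment is narrower.

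The 7 genes were then set against the rest of the array. Their part of all Pcdhb2 to Pcdhb22 counts was 21.4%, 22% and 21.2% in the controls and 29.9%, 28.9% and 29.1% in the mutants. The groups did not overlap, and the mean difference was 7.74 percentage points (exact two-sided permutation test, p = 0.1, the smallest possible). Leaving out Pcdhb6 reduced the difference to 3.72 points. The summed level of the next 7 genes, Pcdhb9 to Pcdhb15, rose from 46.8 to 87.6 CPM, a ratio of 1.87, and that of Pcdhb16 to Pcdhb22 from 74.7 to 117 CPM, a ratio of 1.57.

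Of the 15 other beta genes 14 were tested and 4 were called higher, with a median log2 fold change of 0.47, below that of the 7. All 14 had a positive log2 fold change. The largest was that of Pcdhb14, 1.69 ± 0.10 (SE, adjusted p = 1.36e-08, edgeR), which is close to that of Pcdhb8. The smallest was that of Pcdhb22 at the far end, 0.12 ± 0.10 (SE, adjusted p = 0.935, edgeR). Pcdhb1, directly upstream of Pcdhb2, had 2, 1 and 1 counts in the controls and 4, 4 and 2 in the mutants, too few to be tested.

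**Figure D4:**
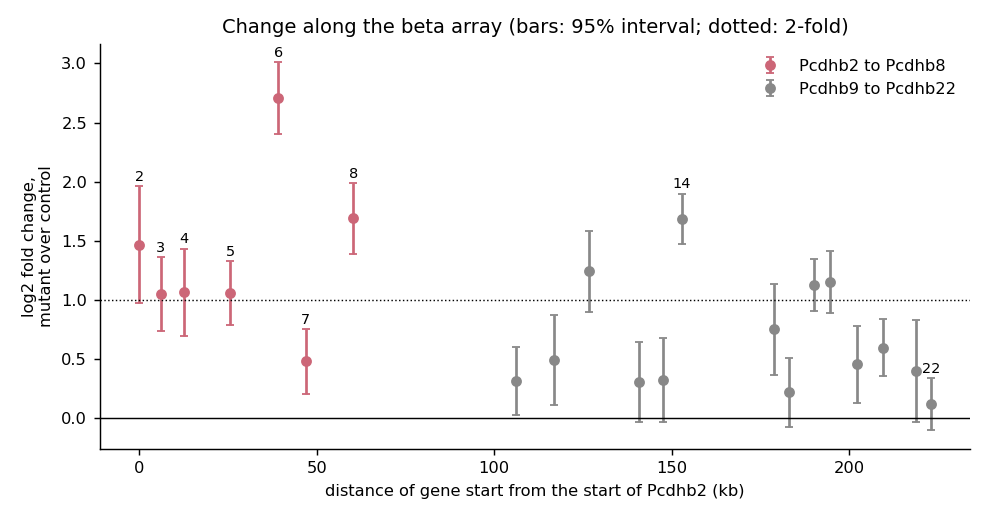
Log2 fold change (mutant over control) with its 95% interval for Pcdhb2 to Pcdhb22, placed by the distance of the gene start from the start of Pcdhb2 in kb; red marks Pcdhb2 to Pcdhb8, grey the later genes, numbers name single members, and the dotted line is 2-fold. Pcdhb6 lies highest of all 21 genes, and Pcdhb7 lies with the smaller changes of the later genes.

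The members that were called did not rest on control replicate 3. Without it the same 6 were called, although the number of called genes overall went from 60 to 47. The log2 fold changes were then 1.55 for Pcdhb2, 1.02 for Pcdhb3 and for Pcdhb4, 1.09 for Pcdhb5, 2.70 for Pcdhb6, 0.50 for Pcdhb7 and 1.63 for Pcdhb8. The log2 ratio of the summed level was 1.34 without that library and 1.35 with it, and the difference in the share of the beta counts was 7.58 instead of 7.74 percentage points. Within the 7-gene sum, the share was higher in the mutants by 15.7 points for Pcdhb6, 3.23 for Pcdhb8 and 0.686 for Pcdhb2, and the differences for Pcdhb7, Pcdhb5, Pcdhb3 and Pcdhb4 were -11.4, -3.12, -2.97 and -2.10 points. Each of these had the same sign with all 6 libraries.

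Over 12 alternatives, the log2 fold change of Pcdhb6 stayed between 2.59 and 2.84 and that of Pcdhb8 between 1.63 and 1.77. The range was 1.29 to 1.56 for Pcdhb2, 0.99 to 1.10 for Pcdhb3, 0.98 to 1.14 for Pcdhb4, 1.02 to 1.09 for Pcdhb5 and 0.43 to 0.55 for Pcdhb7.

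**Figure D5:**
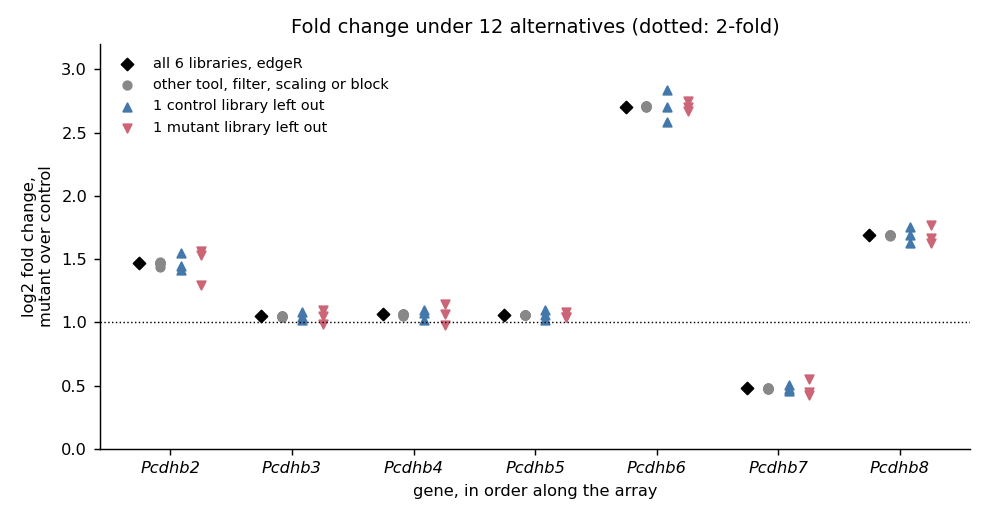
Log2 fold change (mutant over control) of each gene in the edgeR fit of all 6 libraries (black) and under 12 alternatives, namely other tools, filters, scalings or a replicate block (grey), 1 control library left out (blue) or 1 mutant library left out (red); the dotted line is 2-fold. The values of each gene stay close together, and Pcdhb3 and Pcdhb4 dip below the line only without 1 mutant library.

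None of 21 regulators of clustered protocadherin transcription, among them Ctcf, the cohesin subunits, Smchd1, the DNA methyltransferases and the other HUSH genes, passed both thresholds in edgeR, DESeq2 or limma-voom. With no fold threshold, 2 had an adjusted p under 0.05 in each tool, and these were also the only regulators with an unadjusted p under 0.05. They were Fam208a, which encodes the HUSH subunit TASOR, with 49.9 and 85.2 CPM in the controls and mutants (log2 fold change 0.77 ± 0.12 (SE), adjusted p = 0.00141, edgeR), and Morc2a, the ATPase that works with HUSH, with 58.4 and 79.4 CPM (0.45 ± 0.09 (SE), adjusted p = 0.0208, edgeR). Morc2a no longer passed when any library but mutant replicate 1 was left out, with adjusted p-values up to 0.129 (edgeR). Of 14 genes for partners and effectors of the proteins, such as Ptk2, which encodes the focal adhesion kinase, and Cyfip1, of the WAVE complex, 0 had an adjusted or an unadjusted p under 0.05 in edgeR, DESeq2 or limma-voom.

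Markers of the cells that make up the brain were read beside the members. Of 8 neuron markers 1 had an unadjusted and 0 an adjusted p under 0.05 in edgeR, DESeq2 and limma-voom alike, and their summed level was 3207 to 3430 CPM in the controls and 3101 to 3334 CPM in the mutants. In the same 3 tools, 0 of 6 astrocyte, 4 oligodendrocyte progenitor, 6 microglia, 5 endothelium and 3 blood markers had an adjusted p under 0.05. In edgeR 1 astrocyte and 1 progenitor marker had an unadjusted p under 0.05. The 8 oligodendrocyte markers all had negative log2 fold changes, with a median of -0.47. All 8 had an unadjusted p under 0.05 in edgeR, DESeq2 and limma-voom. An adjusted p under 0.05 was reached by 3 of them in edgeR, 3 in limma-voom and 6 in DESeq2. Of all genes tested, 0.0956% were lower at that threshold in edgeR. The oligodendrocyte markers summed to 21889 to 26217 CPM in the controls and 17339 to 20113 CPM in the mutants. The 4 markers of choroid plexus and ependyma summed to 1424 to 1719 CPM in the controls and 1054 to 1259 CPM in the mutants, with 1 of them, Ttr, at an adjusted p under 0.05 in DESeq2 and limma-voom and none in edgeR. The 4 markers of tissue outside the brain summed to 3.24 to 4.39 CPM in the controls and 4.25 to 7.92 CPM in the mutants. Only 1 of them was tested, with a log2 fold change of 0.68. Its unadjusted p was under 0.05 in edgeR, DESeq2 and limma-voom, and its adjusted p in none of them. No marker of any list was at 0 in all libraries. The part of these differences in the member levels was not tested.

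Outside the clustered protocadherins, the 5 genes whose log2 CPM followed the summed level of the 7 members most closely over the 6 libraries were Gm26672 (Pearson r = 0.997), 3222401L13Rik (0.994), Psg16 (0.993), Pnmal1 (0.992) and Zfp990 (0.992). These coefficients mostly reflect the step between 3 control and 3 mutant libraries and are given as a description. Gm26672 and 3222401L13Rik are noncoding transcripts that are annotated on chromosome 18 as well. The former was at 3.92 to 4.18 CPM in the controls and 8.73 to 9.28 CPM in the mutants, and the latter at 1.48 to 1.99 and 23.3 to 26.6 CPM. Zfp990, which encodes a zinc finger protein, had 0 counts in all controls, which allows up to 0.199 to 0.220 CPM per library, and was at 1.6, 1.27 and 2.04 CPM in the mutants. Pnmal1 rose by a log2 fold change of 0.80 ± 0.08 (SE, adjusted p = 8.44e-06, edgeR), whereas the change of Psg16, 0.41 ± 0.16 (SE), did not pass (adjusted p = 0.529, edgeR).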

How the data were processed

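The authors prepared polyA-selected libraries from total RNA of whole brains, sequenced single reads of 50 bases, trimmed them with Trim Galore 0.5.0, removed ribosomal, mitochondrial and other abundant sequences with Bowtie2 2.3.4.1, aligned the rest to GRCm38 with STAR and used featureCounts (Subread 1.6.2) to assign reads to Ensembl genes. The deposited values are raw read counts per gene, 1 table per brain. Whether strand was used and how reads matching several genes were counted is not given in the sources used here.

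Gene symbols, positions and transcripts were taken from GENCODE M21, which matched 54495 identifiers. Genes kept by filterByExpr were tested with the quasi-likelihood method of edgeR 4.0.16 under R 4.3.3, after TMM scaling and with no term besides genotype. The Benjamini-Hochberg adjustment ran across all genes tested, and a gene was called at an adjusted p under 0.05 and a change over 2-fold. Standard errors come from the F statistic. DESeq2 1.42.0 and limma-voom (limma 3.58.1) were run as alternatives, as were other filters, RLE size factors, a replicate block and leaving out each library. The tests were checked on simulated counts. CPM use the TMM-scaled library size, and RPKM divide CPM by the exonic length in kilobases. The limit of a 0 count was set at 3 counts, and it covers counting error only. For the correlations, log2 CPM had a prior count of 2. Sums and shares were compared by exact two-sided permutation of 3 against 3 libraries. The labels number 3 replicates per group, and the study describes them as 3 brains of each genotype. All 6 libraries entered every fit unless said otherwise. Replicates differed by more than counting noise over all genes (chi-square per degree of freedom 3.42 to 12.3), so none was a repeat sequencing of the same library. Whether separate libraries came from the same brain cannot be told from these values. The Y-linked and Xist counts do set control replicate 3 apart as a different mouse from the other controls. Single genes were named by a rule that took Mphosph8, the members, Pcdhb1, the largest and smallest change among Pcdhb9 to Pcdhb22, every regulator or partner with an adjusted p under 0.05 and the 5 genes most like the summed members. The members, gene lists and this rule were chosen with earlier results of these data known. Member sequences are not reported here.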

Additional observations from a re-analysis of the deposited data

How the results depend on the processing

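All members kept a positive log2 fold change under the 12 alternatives, and the number of members called was 6 except without mutant replicate 1, where it was 4. With the replicate block 62 genes and the same 6 members were called. The deviations of same-numbered libraries from their group means correlated over all genes with r = 0.10, -0.05 and 0.08. With only 3 libraries per group, these values cannot tell whether the replicate numbers pair the samples. The block changed no member's call. The number of all genes called, 60, became 96 with no filter on low counts and 105 with no fold threshold, and ran from 47 to 67 with 1 library left out. The difference in the share of Pcdhb2 in the 7-gene sum, 0.419 percentage points, ran from -0.0201 to 0.716 with 1 library left out and was negative without mutant replicate 1. The log2 ratio of the summed level ran from 1.07, without Pcdhb6, to 1.37 over the 10 alternatives, and the difference in the share of the beta counts from 3.72 to 9.45 points over 8. Pcdhb2, with 69 counts over the 3 controls, is the member whose value depth limits most.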
